A study of Sus scrofa with 35 samples.

Results

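The genes described here are 10 components of the circadian clock, ARNTL, CLOCK, PER1, PER2, CRY1, CRY2, NR1D1, NR1D2, DBP and TEF, measured in pig longissimus dorsi, a back muscle. Members were all non-control probes whose gene name in the scanner files was 1 of these symbols, with BMAL1 accepted for ARNTL. That gave 13 of the 60305 probes on the array, for 8 of the 10 genes and among 11570 genes that its probes could be named for. CLOCK and DBP had no probe under these names. The single TEF probe was well above background on 1 of 35 arrays and was left out, so 12 probes of 7 genes were tested. A probe that the array design describes as similar to horse Clock carries no gene symbol, lies outside the rule, and was well above background on 1 array.

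The clock is a transcriptional feedback loop that runs in nearly every cell, muscle fibres included. ARNTL (also called BMAL1) pairs with CLOCK and switches on the PER and CRY genes, whose proteins return to the nucleus and block that pair. NR1D1 and NR1D2, the REV-ERB nuclear receptors, form a second loop that represses ARNTL, and DBP and TEF carry the rhythm to output genes. Over a day the levels of ARNTL and of its targets therefore swing in opposite phase, and temperature and feeding are known to shift the clock of peripheral tissues.

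Castrated male pigs of 3 genetic groups were compared, Creole, Large White (LW) and their F1 cross, at thermoneutrality (TN) and under heat stress (HS). The 35 arrays, 1 animal each, fell into 6 groups of 6, except F1 HS with 5. TN is labelled 24 °C and HS 30 °C, while the growth protocol and the study's methods give 32 °C for 5 days, a disagreement that the sources used here do not settle. Pigs entered the climatic room at 11 weeks of age. Per the methods each breed came from 3 blocks of 4 littermates, lighting was artificial with a fixed daily period, TN pigs were slaughtered 1 or 2 days before the temperature was raised, and HS pigs after 4 or 5 days of it, from other pens. Slaughter day, age and pen thus differed between TN and HS and cannot be told apart from temperature. The same holds for feed intake, which the study reports as lower in the challenged pigs under heat than before it. The time of day at which each pig was slaughtered is not given in the sources used here, so a difference in clock time between animals was not tested.

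Depth on an array is set by brightness, and the number of arrays limits the precision. An array showed 58.4% to 75.9% of its probes well above background. Its brightness, taken as the upper quartile of log2 signals before normalisation, averaged 9.05 ± 0.17 in the 18 TN arrays and 9.24 ± 0.24 in the 17 HS arrays (mean ± SD). The 7 measured skeletal muscle markers had a mean log2 level of 17.91 to 18.33 on every array, although TTN fell in HS by 0.37 on the log2 scale and DES rose by 0.24 (limma adjusted p = 0.0170 and 0.00310). Markers of other cell types moved with temperature. Of 18 leukocyte markers 16 were measured, and 7 of these rose in HS and none fell. The mean log2 level of the 16, called the leukocyte mean below, ranged from 8.21 to 10.98 in TN and from 9.52 to 11.42 in HS. Of 8 connective tissue markers 3 rose, of 6 measured endothelial markers VWF fell (-0.36), of 3 blood cell markers HBB fell (-1.21), of 6 nerve markers NEFM rose (1.35), and none of 6 adipocyte markers was called. The part of these other markers in the clock results was not tested. In bulk muscle, fewer cells of a type and less RNA per cell cannot be told apart.

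Each array probe is a designed 60-base sequence, copied here from the scanner files in lower case. Those shown are the probes of the called genes, PER1 and CRY2, and probes of ARNTL and NR1D1, with a second probe for CRY2, ARNTL and NR1D1 so that the different stretches read can be seen. For PER1 probe 1 and CRY2 probe 1 the first 30 bases are given.
ARNTL probe 1: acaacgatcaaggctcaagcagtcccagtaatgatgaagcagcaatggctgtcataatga
ARNTL probe 3: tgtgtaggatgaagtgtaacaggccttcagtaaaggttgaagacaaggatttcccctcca
PER1 probe 1: acccagacgttctcagctgtaccctctacc
CRY2 probe 1: aatagaggagtgataggatcctagctggga
CRY2 probe 2: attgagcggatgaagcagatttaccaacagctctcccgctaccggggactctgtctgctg
NR1D1 probe 1: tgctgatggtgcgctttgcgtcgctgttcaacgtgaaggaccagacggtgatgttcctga
NR1D1 probe 2: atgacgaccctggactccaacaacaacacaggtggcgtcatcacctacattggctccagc
No 2 of the 13 member probes had the same sequence. The 5 probes printed whole each have at least 1 forward reading frame without a stop codon. Their GC content was 45.0% for both ARNTL probes and 55.0% for CRY2 probe 2 and both NR1D1 probes. A gene is represented below by its brightest kept probe, called probe 1. Levels are log2 of the quantile-normalised intensity and are compared between arrays for 1 probe, never between probes.

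The main temperature result was a lower level of PER1 and CRY2 in heat-stressed muscle, though neither call held under every way of processing. PER1 was lower by 0.54 on the log2 scale (a 31.0% lower signal) and CRY2 by 0.20 (13.1%). The PER1 call was lost in 6 of 14 alternative settings and without any 1 of 18 of the 35 arrays. For CRY2 it was lost in 3 of the 14 settings, and its second probe was not called. The other 5 measured genes, the repressors PER2 and CRY1 among them, had values that did not pass the test. All groups overlapped in every gene, as the plot of levels by breed and temperature shows.

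**Figure D1:**
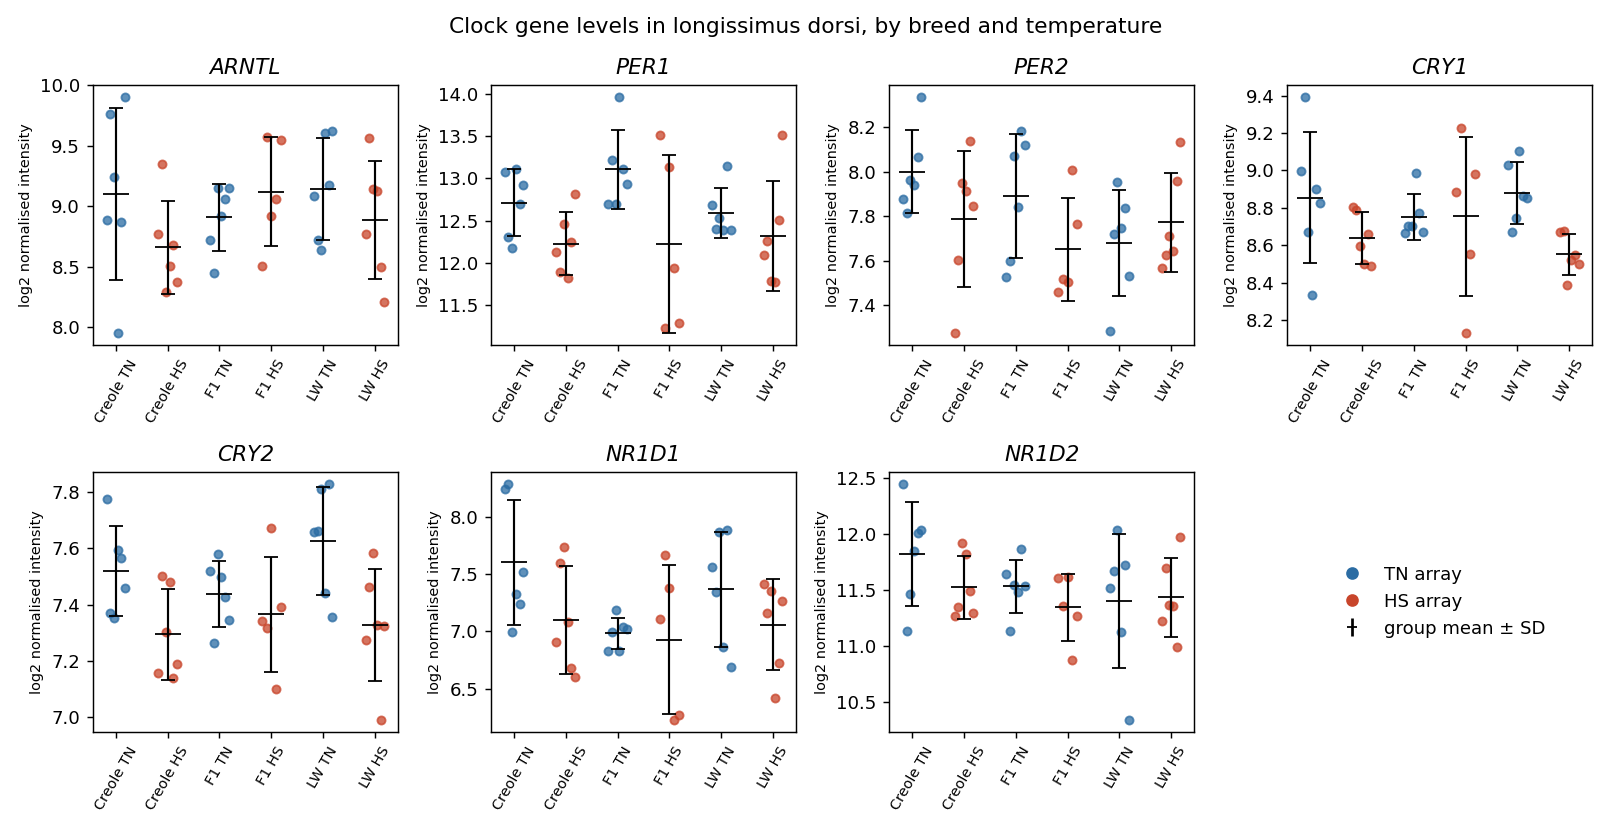
Log2 normalised intensity of the brightest probe of each of the 7 measured clock genes (vertical axis, a separate scale per gene), with 1 point per array, by breed and temperature (LW, Large White), and the group mean ± SD in black. PER1 spreads from 11.23 to 13.51 among the 5 F1 HS animals, and CRY2 is lower in HS than in TN by a small step in a range of 6.99 to 7.83.

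PER1 encodes a period protein that is induced rapidly by several signals, glucocorticoids among them. In Creole its log2 level was 12.17 at the lowest, 12.81 at the median and 13.11 at the highest in TN, against 11.82, 12.19 and 12.82 in HS. In F1 TN it was 12.70, 13.02 and 13.96, and the 5 F1 HS arrays read 13.51, 11.23, 13.14, 11.94 and 11.29. In Large White it was 12.39, 12.47 and 13.14 in TN against 11.78, 12.17 and 13.52 in HS. Most HS animals were low and a few lay within the upper part of the TN range: 13 of 17 HS arrays lay below the TN mean of their breed. The TN mean was 12.80 ± 0.43 (SD, n = 18) and the HS mean 12.26 ± 0.67 (SD, n = 17). The additive limma model of breed and temperature gave a log2 difference (HS minus TN) of -0.54 with an SE of 0.18, a 95% confidence interval of -0.91 to -0.16 and an adjusted p of 0.0439. The difference was below 0 on all 4 slides that allow it, from -0.71 to -0.43, but with the slide as a fixed block the adjusted p was 0.0574. The call was close to the threshold and was lost when any 1 of 18 of the 35 arrays was left out, with differences from -0.55 to -0.45 and adjusted p from 0.0516 to 0.0754.

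CRY2 encodes a cryptochrome, the partner of the period proteins in repression. Its log2 level in Creole was 7.35, 7.51 and 7.77 (lowest, median, highest) in TN and 7.14, 7.25 and 7.50 in HS. In F1 TN it was 7.27, 7.46 and 7.58, and the F1 HS arrays read 7.34, 7.32, 7.67, 7.10 and 7.39. In Large White it was 7.36, 7.66 and 7.83 in TN and 6.99, 7.33 and 7.58 in HS. The shift was small but ran through nearly all animals: 16 of 17 HS arrays lay below the TN mean of their breed for CRY2 probe 1 and 17 of 17 for CRY2 probe 2. In limma the log2 difference was -0.20 (SE 0.06, adjusted p = 0.0205) for probe 1 and -0.17 (SE 0.06, adjusted p = 0.0623) for probe 2. It stayed past the threshold without any 1 array, with adjusted p from 0.00758 to 0.0374. Within slides it was below 0 on 3 of 4, from -0.47 to 0.07.

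CRY2 was also the clock gene most closely tied to overall array brightness. Over deviations from group means its level had Pearson r = -0.78 with the brightness of the array (Spearman rho = -0.82, permutation p = 1e-05 for both, the smallest that 100000 permutations within groups can give). Without the 2 arrays of most extreme brightness r was -0.74. With the leukocyte marker mean, r was -0.63 (rho -0.57, permutation p = 9e-05 and 0.00113). NR1D2 had r = -0.48 with brightness (rho -0.50, permutation p = 0.00837 and 0.00707) and r = -0.77 with the leukocyte mean (rho -0.66, permutation p = 2e-05 and 9e-05). PER1 had r = 0.07 and -0.13 with these measures (permutation p = 0.688 and 0.39). These are 6 of 14 relations computed, 7 genes by 2 measures. With brightness as a covariate the CRY2 difference was -0.08 (adjusted p = 0.321), and with the leukocyte mean it was -0.09 (adjusted p = 0.330). PER1 stayed at -0.59 (adjusted p = 0.0861) and -0.49 (adjusted p = 0.153). Both measures differ between TN and HS themselves, and their part in the CRY2 and PER1 differences was not tested further.

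**Figure D2:**
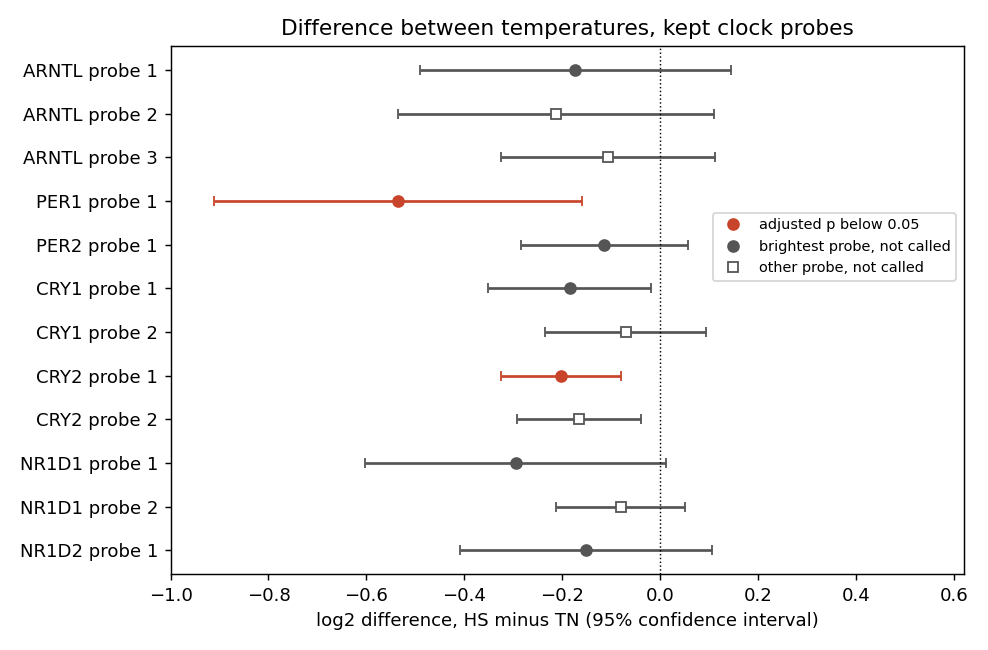
Log2 difference between HS and TN (horizontal axis, points with 95% confidence intervals) for the 12 kept clock probes (vertical axis) in the additive limma model on 35 arrays, with circles for the brightest probe of a gene, squares for its other probes and red for an adjusted p below 0.05. All 12 points lie left of 0 under quantile normalisation (PER2 turns to 0.02 with spike-in scaling), and the interval excludes 0 for PER1 probe 1, CRY1 probe 1 and both CRY2 probes.

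Over the whole array 6654 of 41517 kept probes passed the same test (16.0%), of which 3445 were lower in HS (8.30%), and 56.1% of all probes had a difference below 0. Of these calls 48.2% were higher in HS, against 27.2% with 75th percentile scaling and 86.6% with spike-in scaling. Of the clock genes, each by its brightest probe, 2 of 7 passed (28.6%), both lower. The array shares count every kept probe instead, and counted that way 2 of 12 clock probes passed. All 7 clock genes were below 0. The count was 6 of 7 with spike-in scaling, where PER2 was at 0.02. It was also 6 of 7 with brightness or the leukocyte mean as a covariate, where NR1D2 was at 0.01 and 0.14. The median difference was -0.18 over the 7 clock genes and -0.02 over all kept probes. It was -0.03 and 0.07 with spike-in scaling, and over the clock genes -0.11 with the leukocyte mean as a covariate or with median scaling. With so few members these counts describe the list and no more.

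The remaining clock genes did not pass the test. ARNTL, the activator of the loop, was highly variable: its log2 level ran from 7.95 over a median of 9.06 to 9.91 in Creole TN and from 8.29 over 8.59 to 9.35 in Creole HS. In F1 TN it ran from 8.45 over 8.99 to 9.15, while the F1 HS arrays read 8.50, 9.57, 8.92, 9.06 and 9.55. In Large White it ran from 8.64 over 9.13 to 9.63 in TN and from 8.21 over 8.95 to 9.57 in HS. The groups overlapped almost wholly, with 5 of 6 Creole, 1 of 5 F1 and 5 of 6 Large White HS arrays below the TN mean of their breed. The difference was -0.17 (95% confidence interval -0.49 to 0.14, adjusted p = 0.482), and the other ARNTL probes gave -0.21 and -0.11. On slides it ran from -0.70 to 0.63.

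NR1D1, a heme-binding repressor of ARNTL, showed a difference of -0.30 (95% confidence interval -0.60 to 0.01, adjusted p = 0.182). In Creole TN its log2 level had a median of 7.42 and reached 8.29, with a lowest value just above the Creole HS median of 6.99. It ran from 6.60 to 7.74 in Creole HS, from 6.83 over 7.01 to 7.19 in F1 TN, from 6.68 over 7.45 to 7.88 in Large White TN and from 6.42 over 7.21 to 7.42 in Large White HS. The 5 F1 HS arrays read 7.10, 7.67, 7.37, 6.23 and 6.27, so that this group held both very low and high values while F1 TN was tight. NR1D1 probe 2, dimmer and well above background on 31 of 35 arrays, gave -0.08 (adjusted p = 0.421).

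NR1D2, the second REV-ERB, differed by -0.15 (95% confidence interval -0.41 to 0.11, adjusted p = 0.446), with a log2 level from 10.34 to 12.45 in TN and from 10.88 to 11.97 in HS. Its difference was 0.01 with brightness as a covariate and 0.14 with the leukocyte mean, so its direction was not stable. CRY1, the other cryptochrome, differed by -0.18 (95% confidence interval -0.35 to -0.02, adjusted p = 0.118), and its second probe by -0.07 (adjusted p = 0.596). It passed the threshold without F1 HS replicate 2 (-0.23, adjusted p = 0.0411). PER2, a second period gene, differed by -0.11 (95% confidence interval -0.28 to 0.06, adjusted p = 0.374), and by 0.02 when arrays were scaled to the spike-in probes. The TEF probe, left out of all tests, read between 4.84 and 5.78 over the 35 arrays.

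Within single breeds no clock gene passed the threshold. In Creole all 7 values lay below 0 with a median of -0.30, and 1.91% of all probes were called. In F1 the values ran from -0.88 for PER1 (SE 0.33, unadjusted p = 0.012, adjusted p = 0.400) to 0.21 for ARNTL, and in Large White from -0.33 for CRY1 (SE 0.14, adjusted p = 0.228) to 0.09 for PER2. In each of these 2 breeds 0.00482% of all probes were called. At an unadjusted limma p below 0.05 the count was 1 of 7 in Creole (CRY2), 1 of 7 in F1 (PER1) and 2 of 7 in Large White (CRY1 and CRY2). The breed by temperature interaction was called for 0 of 7 clock genes, and 0.00% of all probes, with 0 of 7 at an unadjusted limma p below 0.05. Adjusted p ran from 0.963 to 0.965. The intervals are wide: the PER1 difference in F1 minus that in Large White was -0.61 with a 95% confidence interval of -1.54 to 0.32, so that sizeable breed differences in the response were not detectable with this number of arrays.

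No clock gene was called between breeds, but few probes of the whole array were called either, so these counts say little about the clock genes. In limma 0 of 7 were called between Creole and Large White, where 3.64% of all probes were. The count was also 0 of 7 between F1 and Large White (0.525% of all probes), between F1 and Creole (0.477%) and between F1 and the midpoint of its parental breeds (0.246%). At an unadjusted p below 0.05 the only gene was NR1D1, which was lower in F1 than in Creole by 0.41 (95% confidence interval of the log2 difference -0.79 to -0.03, unadjusted p = 0.0363, adjusted p = 0.507). Against the parental midpoint its value was -0.34 (unadjusted p = 0.0462, adjusted p = 0.670), whereas NR1D1 probe 2 read -0.01 and 0.00 in these contrasts. Between Creole and Large White the differences ran from -0.13 for ARNTL to 0.26 for NR1D2, with confidence bounds of -0.52 to 0.57 over all 7. The bounds were -0.65 to 0.69 between F1 and Large White and -0.79 to 0.67 between F1 and Creole, which are wide.

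The brightest probes of the clock genes differed in how much they varied between animals of the same group. Ranked by the within-group SD among all 41517 kept probes, PER1 (SD 0.57 log2) stood at percentile 95.4, ARNTL (0.48) at 91.9, NR1D1 (0.47) at 91.6 and NR1D2 (0.39) at 86.4. PER2 (0.25) was at 57.9, CRY1 (0.24) at 56.3 and CRY2 (0.17) at 25.1. The percentile depended on the probe: NR1D1 probe 2 (0.18) was at 29.7 and ARNTL probe 3 (0.32) at 77.3. ARNTL probe 2 (0.48) was at 92.2, CRY1 probe 2 (0.25) at 59.3 and CRY2 probe 2 (0.19) at 31.7. The repeated readings show how much of this spread was shared by probes of a gene. ARNTL probe 1 had r = 0.96 with probe 2 and 0.85 with probe 3 over deviations from group means. The same comparison gave 0.63 for the CRY1 probes, 0.54 for the CRY2 probes and 0.52 for the NR1D1 probes.

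Each clock gene was set against ARNTL over the deviations from group means of all 35 animals, which is 6 relations. Whether any of them reflects the phase of the clock was not tested, as the time of slaughter is not given. PER1 was low where ARNTL was high, with r = -0.54 (permutation p = 0.00103) and rho = -0.58 (permutation p = 0.00121). The sign was negative in 6 of 6 groups, r was -0.29 within TN and -0.77 within HS, and r was -0.61 without the 2 arrays of most extreme ARNTL, both Creole TN. On slides r ran from -0.79 to -0.37. Within groups r ran from -0.95 in F1 HS to -0.10. In F1 HS, the group with the strongest relation, the 2 with PER1 at 13.51 and 13.14 had ARNTL at 8.50 and 8.92, and the 2 with PER1 at 11.23 and 11.29 had ARNTL at 9.57 and 9.55. The fifth lay between, with PER1 at 11.94 and ARNTL at 9.06.

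CRY1 went the other way, high where ARNTL was high, with r = 0.52 (permutation p = 0.00932) and rho = 0.43 (permutation p = 0.0219). Its sign was positive in 6 of 6 groups and r was 0.46 without the 2 arrays. On slides it ran from 0.17 to 0.81. NR1D2 had r = -0.35 (permutation p = 0.0755, rho -0.37, permutation p = 0.0529), and -0.45 without the 2 arrays. For CRY2, PER2 and NR1D1 r was -0.08, -0.06 and -0.01 (permutation p = 0.681, 0.742 and 0.953).

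**Figure D3:**
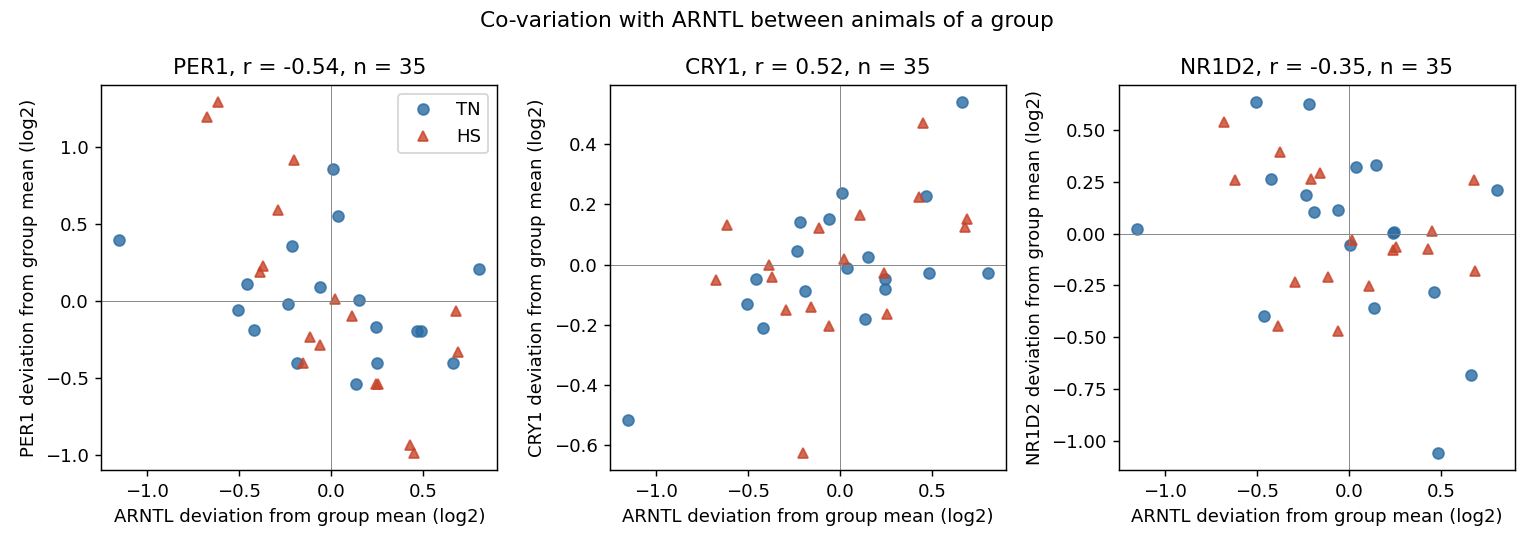
Deviation of PER1, CRY1 and NR1D2 from their group means (vertical axes, log2) against that of ARNTL (horizontal axis, log2), with 1 point per array, circles for TN and triangles for HS. PER1 falls from left to right (r = -0.54), CRY1 climbs (r = 0.52), and NR1D2 is more scattered (r = -0.35).

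Across the whole array these relations did not pass adjustment. In a limma model of group means and ARNTL level, 3 of 41516 probes were called (0.00723%), and 0 of 6 other clock genes, with 3 of 6 at an unadjusted p below 0.05 (PER1, CRY1 and NR1D2). The called probes were both other ARNTL probes and an unnamed expressed sequence tag (r = 0.72, adjusted p = 0.0443). PER1 changed by -0.65 log2 per log2 unit of ARNTL (SE 0.18, adjusted p = 0.884) and CRY1 by 0.27 (SE 0.08, unadjusted p = 0.00278). The second probes differed from the brightest: CRY1 probe 2 changed by 0.16 (SE 0.09, unadjusted p = 0.0942). CRY2 probe 2 changed by -0.15 (SE 0.07, unadjusted p = 0.0422), against -0.03 for CRY2 probe 1. Among all 41517 probes PER1 ranked 33 from the negative end and CRY1 ranked 76 from the positive end.

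Of 9550 other named genes, 1 probe each, DAAM1 (r = 0.63), FRMD3 (0.63), NEDD4L (0.61), PDLIM3 (0.57) and ZFAND5 (0.56) were most like ARNTL over the 35 arrays. AHCTF1 (-0.68), PER3 (-0.62), ZBTB25 (-0.59), TRA2A (-0.58) and ATP6V0A1 (-0.57) were most opposed. None of these 10 passed adjustment over all probes (adjusted p from 0.464 to 0.908). PER3, the remaining period gene, ranked 2 of 9550 from the negative end without being a member of the list. It was read by 1 dim probe only, with a mean log2 level of 6.17 in TN and 6.16 in HS. Just below the likest genes, NFIL3, a repressor that opposes DBP and TEF at the same DNA element, ranked 6 from the positive end (r = 0.56, slope 0.82, SE 0.22, adjusted p = 0.859). HLF, a relative of TEF that was singled out after its value was seen, was at -0.47 and ranked 32 from the negative end. RORA, BHLHE40, BHLHE41, NPAS2 and CIRBP had r between -0.20 and 0.15.

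CRY2, NR1D1 and NR1D2 were positively correlated with each other. Of the 21 pairs among the 7 genes, CRY2 and NR1D2 had the highest r, 0.69 (permutation p = 1e-05, the smallest possible, rho 0.67, permutation p = 0.00015), and 0.68 without the 2 arrays of most extreme CRY2. CRY2 and NR1D1 had r = 0.55 (permutation p = 0.00353, rho 0.52, permutation p = 0.00525, 0.52 without 2 arrays). NR1D1 and NR1D2 had r = 0.47 (permutation p = 0.0111, rho 0.50, permutation p = 0.00618, 0.46 without 2 arrays). All 3 genes ran against array brightness (r = -0.78, -0.44 and -0.48), and its part in these pair correlations was not tested. PER1 and NR1D2 had r = 0.36 (permutation p = 0.0223, rho 0.42, permutation p = 0.0152), and 0.26 without 2 arrays. Other pairs outside ARNTL lay between -0.28 and 0.27.

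**Figure D4:**
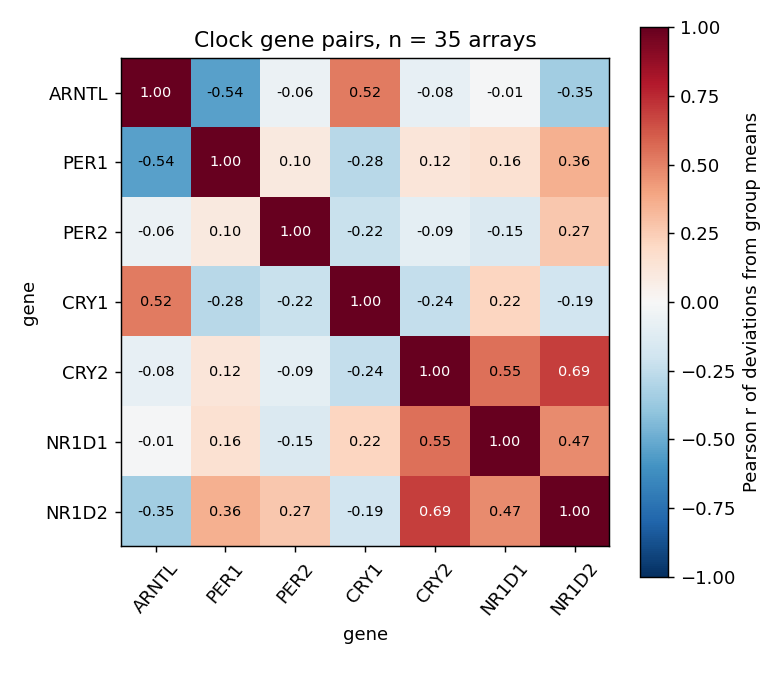
Pearson correlation of the deviations from group means for each pair of the 7 clock genes (both axes list the genes, colour and number give r, n = 35 arrays). The lowest value is -0.54 for ARNTL with PER1 and the highest off the diagonal is 0.69 for CRY2 with NR1D2.

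Other parts of the clock machinery were taken from a list of 29 genes, 21 of them measured. In HS 2 of 21 fell (9.52%, near the 8.30% of all kept probes that fell), none rose, and the median was -0.08. USP2, a deubiquitinase whose substrates include clock proteins, averaged 11.53 ± 0.34 in TN (SD, n = 18) against 11.11 ± 0.25 in HS (SD, n = 17), a log2 difference of -0.42 (SE 0.10, adjusted p = 0.00515). The USP2 call was lost with spike-in scaling (-0.28, adjusted p = 0.0678), brightness (-0.31, 0.0742) or the leukocyte mean (-0.28, 0.0931). GSK3B, a kinase that phosphorylates several clock proteins, averaged 11.56 ± 0.25 against 11.30 ± 0.21, a difference of -0.26 (SE 0.08, adjusted p = 0.0208), while neither of its other 2 probes passed. The GSK3B call was lost with median scaling (-0.20, adjusted p = 0.0703), spike-in scaling (-0.12, 0.426) or brightness (-0.18, 0.187). RORA, the nuclear receptor that activates ARNTL in competition with the REV-ERBs, differed by -0.24 (SE 0.09, adjusted p = 0.0710). The other named loop genes were not called: NPAS2, the partner that can replace CLOCK, at -0.08, PER3 at -0.01, BHLHE40 at -0.01, BHLHE41 at -0.12 and NFIL3 at 0.21, with adjusted p from 0.496 to 0.949.

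Among clock output genes of muscle, KLF9, KLF10, GYS1 and UCP3 fell in HS. Of 15 listed, 11 were measured, 4 fell (36.4%, against 8.30% of all kept probes), none rose, and the median was -0.18, the same as over the 7 clock genes. The list was chosen with earlier results of these data known. These shares are therefore no test of clock output and describe the list only. KLF9, a transcription factor with a strong daily rhythm, averaged 12.36 ± 0.35 against 11.66 ± 0.36, a difference of -0.70 (SE 0.12, adjusted p = 0.000265) that 10 other KLF9 probes shared past the threshold. KLF10, another factor of that family, differed by -0.46 (SE 0.11, adjusted p = 0.00701), and by -0.32 with spike-in scaling, where the call was lost (adjusted p = 0.151). GYS1, glycogen synthase of muscle, differed by -0.46 (SE 0.07, adjusted p = 0.000171), with 17 of 17 HS arrays under their breed's TN mean. UCP3, a mitochondrial carrier protein linked to fatty acid use, fell from 13.86 ± 0.83 to 12.89 ± 0.91, a difference of -0.96 (SE 0.28, adjusted p = 0.0196), and missed the threshold with brightness (adjusted p = 0.171) or the leukocyte mean (0.236) as a covariate. These genes respond to hormones and feeding as well as to the clock.

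No measured regulator that passes temperature to the clock was called, though with so few genes this count says little. Of 6 listed genes 5 were measured and 0 were called in limma, against 16.0% of all kept probes. The count was 1 with 75th percentile scaling or array weights. In the main fit 1 gene had an unadjusted p below 0.05, and the median was -0.04. CIRBP, an RNA-binding protein induced by cold that affects CLOCK transcripts, averaged 9.00 ± 0.40 against 8.87 ± 0.26, a difference of -0.14 (SE 0.10, adjusted p = 0.368). RBM3, its cold-induced relative, had no probe under that name. HSF1, the heat shock transcription factor, differed by -0.15 (SE 0.06, adjusted p = 0.0626).

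**Figure D5:**
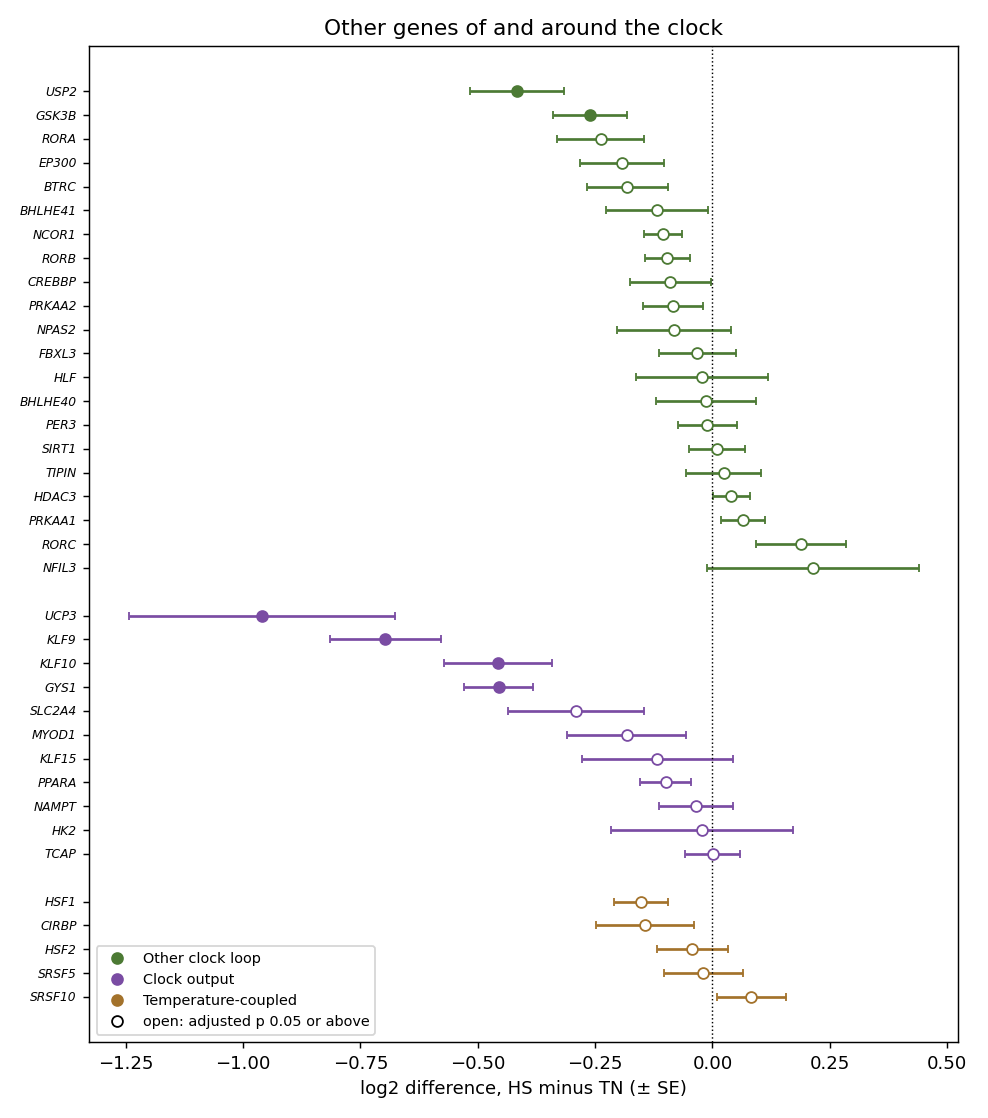
Log2 difference between HS and TN (horizontal axis, points with SE) for the measured genes of 3 lists (vertical axis), other clock loop genes in green, clock output genes in purple and temperature-coupled regulators in brown, with filled points for an adjusted p below 0.05. The filled points are USP2, GSK3B, UCP3, KLF9, KLF10 and GYS1, all left of 0.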

How the data were processed

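Per the labels, total RNA of each muscle was labelled with Cy3, and the authors quantified 1-colour porcine arrays with Agilent Feature Extraction 10.10.1.1. Intensity in the deposited scanner files is linear, and the deposited value table holds log2 values that the authors had quantile-normalised. Median pixel intensity was quantile-normalised here without background subtraction and log2 taken. The 105 outlier spots were set to missing, which limma drops from a probe's fit. Probes well above background on at least 75% of arrays of a group were kept (41517 of 60305). Symbols of list genes come from the gene name in the files and RefSeq tables (Sscrofa11.1, names only). limma 3.58.1 in R 4.3.3 fitted breed plus temperature, group means, and group means plus ARNTL level to all 35 arrays, with Benjamini-Hochberg adjustment at 0.05. Littermates and pens are not in the labels and were treated as independent, so p-values may be too small. Permutations (100000, two-sided) were within groups. Named were all members, every list gene past the threshold, 8 clock regulators whatever their value, and the 5 genes most like and most opposed to ARNTL, each by its brightest probe. Members and lists were chosen with earlier results of these data known. Scripts were tested on simulated data. Alternatives covered scaling, background, filters, slide, covariates and leaving out each array. Promoter sequences were not analysed here.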

Additional observations from a re-analysis of the deposited data

Results flagged for a closer look

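Over 72 combinations of a kept clock probe and a group, 2 held an array set apart from the others of its group by Dixon's test. Chance gives about 1 in 20, or 3.6 expected here, so 2 is no more than chance would give. F1 TN replicate 4 had the highest CRY1 probe 1 level, 8.99 against 8.66 to 8.77 in the other 5 animals (gap over range 0.658). Large White TN replicate 1 had the lowest CRY1 probe 2 level, 7.09 against 7.67 to 7.99 (gap over range 0.650).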

How the results depend on the processing

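Of the 7 clock genes, 2 were called with temperature. The count was 1 with median scaling, no filter on dim probes or the slide as a fixed block, 0 with spike-in scaling or with brightness or the leukocyte mean as a covariate, and 1 to 2 without single arrays. PER1 was lost in each of these 6 settings (adjusted p 0.0574 to 0.153; 0.0237 to 0.153 over all 14), and CRY2 in the last 3 (0.321 to 0.338; 0.00709 to 0.338 over all 14). PER1 was also lost without Creole TN replicate 1, 4, 5 or 6, Creole HS 1, 2, 4 or 5, F1 TN 4 or 5, F1 HS 2, 4 or 5, Large White TN 3 or 5, or Large White HS 1, 3 or 4 (-0.55 to -0.45, adjusted p 0.0516 to 0.0754). The counts for breeds, single breeds, interaction, parental midpoint and ARNTL were 0 throughout. Other loop genes called were 2, against 1 (median scaling, leukocyte mean), 0 (spike-ins, brightness) and 4 (slide block), and 2 to 3 without single arrays. Temperature-coupled genes called were 0, against 1 with 75th percentile scaling or array weights and 0 to 1 without single arrays, output genes 4 without any array and 3 to 6 otherwise.

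Signs turned as follows. In the temperature difference with spike-ins PER2 was 0.0174, PER3 0.0496, BHLHE40 0.111, BHLHE41 0.0360 and CIRBP 0.0100. With brightness NR1D2 was 0.00609, PER3 0.0112 and BHLHE40 0.117. With the leukocyte mean NR1D2 was 0.135, NFIL3 -0.0974, BHLHE40 0.0212 and BHLHE41 0.0244. With array weights PER3 was 0.00274 and BHLHE40 0.0240, with normexp PER3 was 0.00297, and with median scaling BHLHE40 was 0.0336. Slopes on ARNTL turned with spike-ins for PER2 (0.140) and CRY2 (0.0157), and for NR1D1 with brightness (0.0200) or the slide block (0.0225). Without single arrays, NR1D1 slopes ran from -0.104 to 0.0505, PER2 slopes from -0.0901 to 0.0156, and differences from -0.0336 to 0.0146 for PER3 and -0.0555 to 0.0262 for BHLHE40. The cause was not tested.

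Of all called probes 48.2% were higher in HS, against 27.2% with 75th percentile scaling, 37.5% for the processed signal and 86.6% with spike-ins, where the median over all probes moved from -0.02 to 0.07. RORA was called with the slide block (-0.26, adjusted p = 0.0371) and without Creole TN replicate 2 or 6, Creole HS 2, or Large White TN 6 or HS 2 (0.0216 to 0.0496). TN and HS arrays came from different pigs and the labels name no litters, so no paired analysis was possible. The search of member promoters was not run, for want of a sequence table. Depth limits the TEF probe and NR1D1 probe 2, which lie near background.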
